A study of Mus musculus with 2 samples.

Results

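The Krüppel-like factors (KLFs) of mouse bone marrow-derived macrophages were examined through 9 genes, Klf2, Klf3, Klf4, Klf6, Klf7, Klf9, Klf10, Klf11 and Klf13, matched by symbol among the 15576 genes with a deposited FPKM value (reads per kilobase of gene and 1e6 reads). All 9 were found. The family was chosen by a measured value, the difference of Klf4 in FPKM, which is among the largest between the libraries, so every difference below is a description and carries no test. RNA was sequenced from 2 libraries of wild-type mouse macrophages grown from bone marrow. The library called DCA came from cells exposed to deoxycholic acid, a secondary bile acid made by gut bacteria, at 100 µM for 24 h, and the library called NC from cells collected without it. No source used here gives the strain, sex or age of the mice, the vehicle, or the number of animals behind a culture. Each group has 1 library, so the spread between cultures is unknown.

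KLFs are transcription factors with C2H2 zinc fingers at the carboxyl end that bind GC-rich and CACCC elements in promoters. Sequence sorts them into subgroups. KLF2, KLF4, KLF6 and KLF7 belong to the subgroup of mostly activating factors, KLF3 and KLF8 to the one that recruits the corepressor CtBP, and KLF9, KLF10, KLF11, KLF13 and KLF16 to the one that recruits SIN3A. In the myeloid lineage KLF4 is known for its part in monocyte differentiation and alternative activation, KLF2 for restraining inflammatory gene expression, and KLF6 for promoting it.

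Klf4 and Klf2 were the members furthest apart between the libraries, both higher in DCA, by 3.26-fold and 1.32-fold in FPKM. The other 7 members lay between ratios of 0.864 for Klf10 and 1.095 for Klf9. The Klf4 value, however, differs in kind from those of the other 8 members. FPKM values made from read counts are whole reads multiplied by a constant that depends on the gene length. A length with whole reads was found for 14870 of the 14878 genes with a value above 0. Of these, 14300 gave whole reads in both libraries at the summed length of their annotated transcripts, and 570 only at another length. The search over other lengths is the weaker evidence, as a value of 0 passes at any length and high FPKM values pass more easily. Klf4 was among the 8 genes that gave whole reads at no length up to 600 kb. At the annotated length its values correspond to 1027.1 reads in DCA and 329.98 in NC, neither of them whole: the 14300 genes deviated from whole reads by at most 0.000353 of a read, and each of the 8 genes by at least 0.0954 in the library where it deviated more. The totals were 56.6 and 59.2 times 1e6 reads.

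The 8 genes resembled each other. All 8 were at least 1.5-fold higher in DCA on the scale of FPKM + 1, with 3.65 to 4.82 FPKM in DCA and 0.983 to 1.76 in NC. Their means over the libraries fell between 2.66 and 2.92 FPKM, a span that held 308 other genes, of which 1 was at least 1.5-fold higher. The others were the stefin gene Stfa3 (4.82 and 0.983 FPKM in DCA and NC), the defensin gene Defb40 (3.65 and 1.76), and the non-coding GM20559 (4.78 and 0.983), 5730403I07Rik (4.81 and 1.03), D030028A08Rik (4.12 and 1.20), Snhg5 (4.15 and 1.21) and GM23318 (3.83 and 1.57). These 7 genes were named after their values were seen. The table writes 2 symbols of predicted genes with GM in capitals, and both are among them, whereas 205 symbols begin with Gm. How the values of these 8 genes were made was not tested, so the difference of Klf4 is reported as deposited, with no counting interval, and the counts of members are also given without it.

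The promoters of Klf2 and Klf4, the members with the highest ratios, are shown beside that of Klf6, which has the highest level per length of the 8 members with whole reads and a ratio near 1. Each stretch comes from RefSeq on GRCm38.p6, reads 5′ to 3′ on the strand of the gene and ends before the annotated start. Capitals mark GC boxes (GGGCGG on either strand, the core of sites bound by KLF and SP factors). In Klf2 they also mark a match to CTA, any 4 bases and TAG. This is a looser form of the sites bound by MEF2 factors, whose 4 middle bases are A or T.
Klf2 (chr8:72318812-72319032, plus strand): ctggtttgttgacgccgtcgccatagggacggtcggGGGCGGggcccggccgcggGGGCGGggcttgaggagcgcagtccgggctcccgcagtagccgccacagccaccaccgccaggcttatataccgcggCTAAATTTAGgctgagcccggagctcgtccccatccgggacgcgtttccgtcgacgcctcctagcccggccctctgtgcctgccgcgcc
Klf4 (chr4:55532476-55532725, minus strand): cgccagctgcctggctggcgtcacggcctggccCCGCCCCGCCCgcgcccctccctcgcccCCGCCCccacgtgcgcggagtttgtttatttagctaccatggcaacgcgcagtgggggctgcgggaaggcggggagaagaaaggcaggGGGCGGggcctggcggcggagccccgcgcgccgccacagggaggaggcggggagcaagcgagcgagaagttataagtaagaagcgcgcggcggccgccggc
Klf6 (chr13:5861239-5861481, plus strand): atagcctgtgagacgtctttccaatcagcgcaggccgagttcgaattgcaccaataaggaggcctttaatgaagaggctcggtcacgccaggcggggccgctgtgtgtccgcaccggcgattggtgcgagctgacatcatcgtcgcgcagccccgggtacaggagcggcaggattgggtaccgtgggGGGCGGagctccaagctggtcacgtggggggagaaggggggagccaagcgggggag

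RefSeq windows of 300 bases, 250 before and 50 after the start, were found for 8 of the 9 members, all but Klf10. GGGCGG was present in 7 of the 8, against 35.7% of all windows, with 6 matches in Klf3, 4 in Klf4 and in Klf11, 2 in Klf2 and none in Klf9. CACCC, free to overlap a GC box, was present in 5 of 8, against 57.5%. The looser MEF2 form, with any 4 middle bases, was found in the Klf2 window, as CTAAATTTAG, and in no other member. The middle bases of this match, AATT, are all A or T, so it also meets the stricter form. The looser form was present in 3.69% of all windows, which is not the share with the stricter site. The AP-1 form TGANTCA was present in Klf9 alone (7.81% of all windows), and the STAT6 form (TTC, any 4 bases and GAA) in none of the 8 (6.95%). The windows were richer in G and C than the median window (52.7%), from 58.3% in Klf7 to 77.7% in Klf11. All motifs were counted on both strands, and a match is a run of letters, not a bound site.

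Klf4 (ENSMUSG00000003032, chromosome 4, 55527143 to 55532466, minus strand, GRCm38) stood at 4.12 FPKM (DCA) and 1.26 FPKM (NC). On the log2(FPKM + 1) scale, where the added 1 shrinks ratios at low values, the difference was 1.18, the 11th highest of the 9656 genes with a mean of at least 1 FPKM. It was the only member at least 1.5-fold apart, 1 of 9 higher and 0 of 9 lower, where 0.342% of the tested genes were that much higher and 0.155% that much lower. As the rule used this contrast, nothing is read from the count, and without Klf4 it was 0 of 8. With a pseudocount of 5 FPKM the difference was 0.54, short of 1.5-fold.

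No exon of another annotated gene overlaps Klf4, and 2 genes within 1 Mb of it were measured. The nearer, Rad23b, which encodes a DNA repair factor, stood at 22.4 FPKM (DCA) and 22.9 FPKM (NC) on 9413 and 10066 reads, at a ratio of 0.979 (0.951 to 1.01). Zfp462, a zinc finger gene, counted 46 and 32 reads, at a ratio of 1.504 (0.938 to 2.44). The intervals here and below are exact Clopper-Pearson 95% intervals that cover counting error only, and since PCR copies are not independent molecules they are too narrow. On the other side the nearest measured gene, Actl7b, lies 1207.5 kb away and counted 0 (DCA) and 6 reads (NC). Among tested genes without exon overlap, the 5 nearest to Klf4 by the distance of log2 ratios over the 2 libraries were the interferon-induced Ifit3b at 2.65 (175 and 69 reads), GM23318 at 2.44, the chemokine gene Ccl5 at 2.36 (142 and 63 reads), 5730403I07Rik at 4.67 and Scrg1 at 2.27, and 2 of these, GM23318 and 5730403I07Rik, were among the 8 genes without whole reads.

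Klf2 (ENSMUSG00000055148, chromosome 8, 72319033 to 72321656, plus strand) counted 3441 (DCA) and 2734 reads (NC), or 32.9 and 25.002 FPKM. The ratio was 1.32 (1.25 to 1.39). The annotation gives Klf2 a single transcript and no exon shared with another gene, so neither its length nor the assignment of its reads is in doubt on that account. Its difference of 0.38 was the 71st highest of the 9656 tested genes, and the central 95% of the tested genes had ratios between 0.847 and 1.25. Across the settings tried it stayed between 0.34 and 0.40, below 1.5-fold in each.

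**Figure D1:**
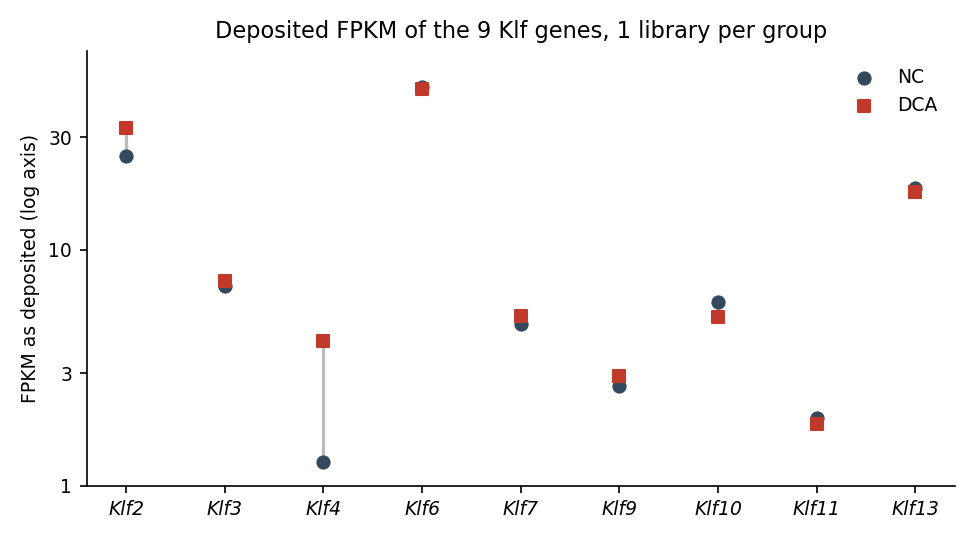
Deposited FPKM of the 9 Klf genes (vertical log axis), with circles for the NC library and squares for the DCA library, 1 library each. Klf4 (4.12 against 1.26) and Klf2 (32.9 against 25.002) are the genes whose symbols lie furthest apart; heights of different genes are not comparable, because the lengths behind these FPKM sum all transcripts of a gene.

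Klf6 and Klf7 are the other members of the activating subgroup. Klf6 (ENSMUSG00000000078, chromosome 13, 5861482 to 5870394, plus strand) stood at 48.3 FPKM (DCA) and 49.3 FPKM (NC) on 16760 and 17911 reads, the most of any member. Its ratio was 0.979 (0.959 to 1.0002), an interval that includes equality. Klf7 (ENSMUSG00000025959, chromosome 1, 64029447 to 64122282, minus strand) stood at 5.26 and 4.86 FPKM on 2885 and 2789 reads, at a ratio of 1.08 (1.03 to 1.14). Of its 8131 exonic bases, 3200 (39.4%) are shared with the annotated genes Gm13748 and Gm26649, for which no value was used here, so its reads are less certain than those of Klf6. In this subgroup Klf4 and Klf2 had the highest ratios of all members, while Klf6 and Klf7 lay within 10% of equality. As the family was chosen by the difference of Klf4, nothing about the subgroup is read from this.

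Klf3 (ENSMUSG00000029178, chromosome 5, 64803388 to 64832901, plus strand), the CtBP-recruiting repressor among the members, stood at 7.38 FPKM (DCA) and 7.03 FPKM (NC) on 7059 and 7044 reads. The ratio was 1.05 (1.01 to 1.08), and 404 of its 11243 exonic bases (3.59%) are shared with Gm20033. Its relative Klf8 is a repressor gene on chromosome X (153237466 to 153396132, plus strand) and stood at 1.12 and 0.740 FPKM on 598 and 412 reads, at a ratio of 1.52 (1.34 to 1.73). That was the highest ratio of any Klf gene with whole reads and at least 50 of them, at a mean just under the limit of 1 FPKM for tested genes. The CtBP genes themselves, Ctbp1 and Ctbp2, lay at 1.04 and 0.971.

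In the SIN3A-recruiting subgroup 3 of the 4 members, Klf10, Klf11 and Klf13, were lower in DCA. As 46.5% of all tested genes were lower, nothing is read from this count. Klf10 (ENSMUSG00000037465, chromosome 15, 38291463 to 38300706, minus strand), first known as a gene induced early by TGF-beta, stood at 5.21 FPKM (DCA) and 6.03 FPKM (NC) on 2800 and 3391 reads. With a ratio of 0.864 (0.822 to 0.909) it was the lowest member, and its difference of -0.18 was the 238th lowest of the 9656 tested genes. Klf11 (ENSMUSG00000020653, chromosome 12, 24651274 to 24662789, plus strand), likewise TGF-beta-inducible, stood at 1.82 and 1.93 FPKM on 598 and 663 reads, at a ratio of 0.944 (0.844 to 1.06) that does not exclude equality.

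Klf13 (ENSMUSG00000052040, chromosome 7, 63886351 to 63938915, minus strand), known in T cells as an activator of the chemokine gene Ccl5, stood at 17.6 and 18.3 FPKM on 8361 and 9104 reads. Its ratio was 0.961 (0.933 to 0.990). Klf9 (ENSMUSG00000033863, chromosome 19, 23141226 to 23168134, plus strand), a gene induced by glucocorticoids, was higher in DCA, at 2.91 FPKM against 2.66 FPKM in NC. With 922 and 881 reads its ratio of 1.095 (0.998 to 1.203) does not exclude equality. Klf16, of the same subgroup but not a member, stood at 5.74 and 6.85 FPKM on 869 and 1084 reads, at a ratio of 0.839 (0.766 to 0.918), the 127th lowest of the tested genes.

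**Figure D2:**
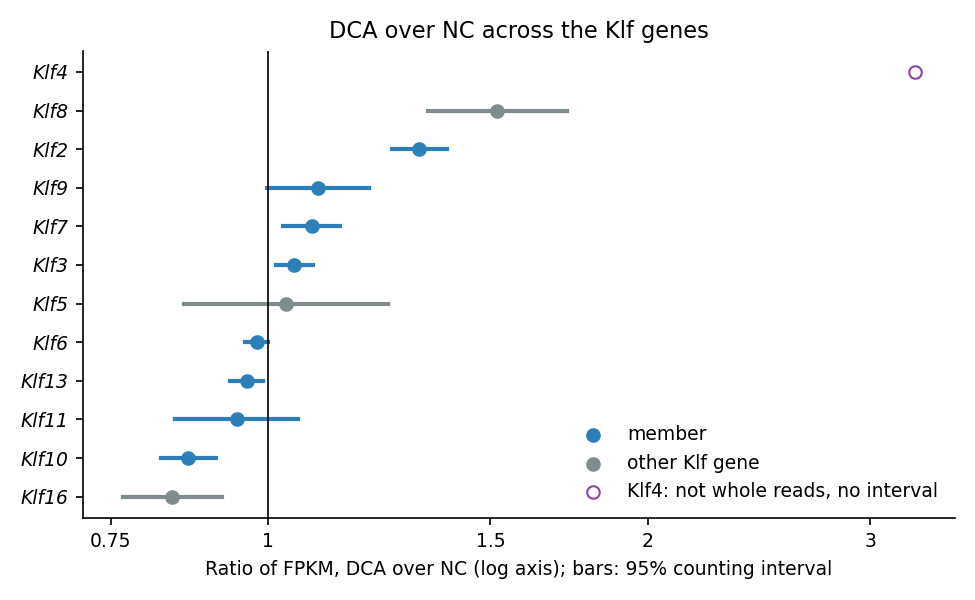
Ratio of FPKM in DCA over NC (horizontal log axis) for the 9 members and for Klf5, Klf8 and Klf16, the other Klf genes with at least 50 reads, with bars for the 95% counting interval. Klf4 (open symbol, 3.26) has no interval; Klf8, Klf2, Klf7 and Klf3 lie above 1 and Klf13, Klf10 and Klf16 below 1 with their whole interval.

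Over the family, 5 members were higher in DCA and 4 lower, where 53.5% of all tested genes were higher. The median ratio of the members was 1.05, against 1.01 over all tested genes, and 1.01 over the 8 members other than Klf4, of which 4 were higher. The counting interval lay above 1 for Klf2, Klf3 and Klf7 and below 1 for Klf10 and Klf13, thus for 5 of the 8 members with whole reads. That share is to be read beside 45.7% of the 9636 tested genes with rebuilt reads (25.7% above and 20.0% below), since the libraries differ by more than counting error at many genes. Those reads were rounded at the annotated length, also for genes whole only at another length. Without Klf3 and Klf7, whose exons overlap those of another gene, 3 of 7 members were higher, and the median difference in log2(FPKM + 1) turned from 0.060 to -0.030. These 7 include Klf4, and without it 2 of 6 were higher, with a median of -0.042.

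**Figure D3:**
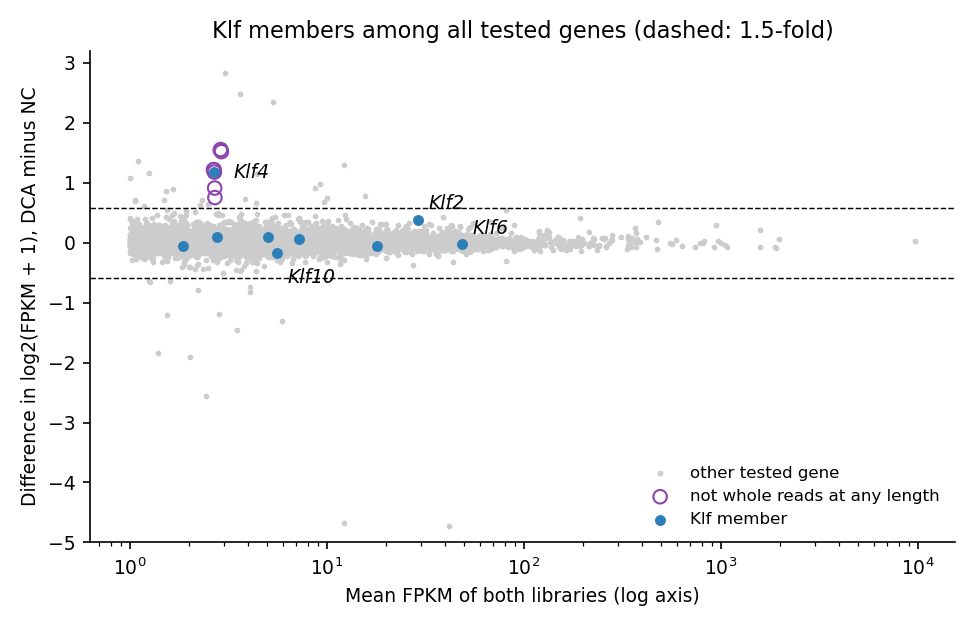
Difference in log2(FPKM + 1), DCA minus NC, against the mean FPKM of both libraries (log axis) for the 9656 tested genes, with the Klf members filled in blue, the 8 genes without whole reads circled and 1.5-fold marked by dashed lines. The circled genes share a mean between 2.66 and 2.92 FPKM and include Klf4; the other 8 members lie within the dashed lines.

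Levels of different members were compared only after dividing the reads by the length of the union of each gene's annotated exons, per kilobase and 1e6 reads. The list sums given below instead add deposited FPKM. They serve only to set the libraries side by side and follow the genes with the highest values. On this per-length scale Klf6 was highest, at 67.5 in DCA and 68.9 in NC, followed by Klf2 at 32.9 and 25.002 and Klf13 at 19.6 and 20.4. Klf10 (11.8 and 13.7) and Klf3 (11.1 and 10.6) came next and lay closer to each other in DCA than in NC. Klf7 (6.27 and 5.79), Klf9 (3.38 and 3.09) and Klf11 (2.44 and 2.58) were the lowest of the 8, and Klf4 was not placed. The order of the 8 was the same in both libraries, but with 1 library each the spread of these levels is unknown. Klf6 made up 43.5% of their summed level in DCA and 45.9% in NC, while the share of Klf2 was 21.2% and 16.7%.

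Of the 6 other Klf genes in the table, Klf5, an activator best known from epithelia, counted 230 and 233 reads, at a ratio of 1.03 (0.857 to 1.24). Klf15 counted 4 (DCA) and 7 reads (NC). Klf12 counted 0 (DCA), which allows up to 3, and 8 reads (NC). The erythroid factor Klf1 was listed at 0.0635 FPKM in DCA and at 0 in NC. The SP factors, the nearest relatives of the KLFs, lay close to equality in these libraries. Sp1, Sp2, Sp3 and Sp4 had ratios between 0.968 and 0.996, and every interval included 1. That is 4 of 4 lower, beside 46.5% of all tested genes. Sp2 shares 126 exonic bases with D030028A08Rik, one of the 8 genes without whole reads. Sp8 was listed at 0 in both libraries.

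The partners and inducers of the KLFs included genes on either side of equality. Counts of genes higher or lower, in these and the following lists, are to be read beside all tested genes, 53.5% higher and 46.5% lower. None of their tested genes was 1.5-fold apart, and since 0.342% of all tested genes were that much higher and 0.155% that much lower, nothing is read from this count. Of 13 co-regulators, which bind KLFs and modify chromatin, 7 were higher and 6 lower, with a median ratio of 1.01. The deacetylase gene Hdac2 lay at 1.09 (1.05 to 1.14), Sap30 of the SIN3 complex at 1.07 (1.0003 to 1.15), Crebbp, an acetyltransferase, at 0.953 (0.912 to 0.996) and Hdac3 at 0.967 (0.924 to 1.01). Among ubiquitin ligases described to act on KLF proteins, 3 of 6 tested genes were higher. Fbxo32 had a ratio of 1.16 (1.03 to 1.32), Fbxw7 1.09 (1.02 to 1.15), Wwp1 0.914 (0.891 to 0.938) and Vhl 0.926 (0.872 to 0.983).

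The MEK5-ERK5 cascade acts through MEF2 factors and is known to induce Klf2 and Klf4 in endothelium. Of its genes 5 of 7 were lower, where 46.5% of all tested genes were, with a median ratio of 0.963. At the ends of the range lay Mef2a at 0.954 (0.936 to 0.973), Map3k2 at 0.958 (0.926 to 0.991), Mapk7, which encodes ERK5, at 1.02 (0.967 to 1.07) and Mef2c at 1.03 (0.994 to 1.06). Genes of the TGF-beta pathway, which induces Klf10 and Klf11, had 7 of 11 members lower and a median ratio of 0.979. Nothing about these pathways is read from the 2 counts. Smad2 lay at 0.946 (0.908 to 0.987), Smad4 at 0.949 (0.911 to 0.989), Smad3 at 1.04 (0.962 to 1.12) and Smurf2 at 1.05 (1.01 to 1.102).

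Of the glucocorticoid response genes, named here because Klf9 is a member of that response, 4 of 6 tested were higher, with a median of 1.02. Sgk1 had a ratio of 1.04 (1.01 to 1.08), Dusp1 0.964 (0.908 to 1.02) and Per1 0.954 (0.891 to 1.02), while Zbtb16, below the filter with 131 and 88 reads, had 1.56 (1.18 to 2.07). Clock genes, whose cycle also drives Klf9 and Klf10, had 3 of 7 tested members higher and a median ratio of 0.954. The clock activator Arntl had 0.882 (0.805 to 0.965) and Cry2 0.916 (0.821 to 1.02), and the repressors Nr1d2 and Nr1d1 had 1.05 (0.999 to 1.11) and 1.44 (1.16 to 1.79), the last below the filter. Immediate early genes, a class that includes several KLFs, were split 8 higher and 8 lower at a median of 0.995. Atf3 was at 0.864 (0.825 to 0.903) and Egr3 at 1.14 (1.03 to 1.25), and below the filter Egr2 was at 0.765 (0.659 to 0.887) and Nr4a2 at 1.40 (1.097 to 1.79).

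Genes described elsewhere as targets of KLF2 or KLF4 counted 8 of 12 tested members higher, where 53.5% of all tested genes were, with a median ratio of 1.02 against 1.01. The list was not split by whether the factors activate or repress a gene, so this count has no expected direction. The count at least 1.5-fold apart was 0 of 12, beside 0.342% of all tested genes higher and 0.155% lower, from which nothing is read. The chitinase-like Chil3 stood at 143.07 FPKM (DCA) and 126.6 FPKM (NC), at a ratio of 1.1298 (1.105 to 1.15). Cd14, the lipopolysaccharide co-receptor, was at 0.940 (0.913 to 0.968), and Arg1, below the filter with 26 and 38 reads, at 0.716 (0.417 to 1.21). Of 8 genes of large peritoneal macrophages, a state described to depend on KLF2 and KLF4, 2 passed the filter: the lipoxygenase gene Alox15 at 1.496 (1.35 to 1.66) and Icam2, which encodes an adhesion molecule, at 1.09. Below it lay Selp at 1.75 (1.32 to 2.34), Prg4 at 0.715 (0.469 to 1.08) and Garnl3 at 0.516 (0.332 to 0.788), the defining factor Gata6 counted 4 (DCA) and 0 reads (NC), and Timd4 was at 0 in both.

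Most tested markers of other cells of a marrow culture were higher in DCA, where 53.5% of all tested genes were higher. The endothelial genes Kdr and Cdh5 were lower. In bulk RNA, fewer cells of a type and less RNA per cell cannot be told apart. Monocyte markers, from cells known to express Klf4 and Klf2, were higher in DCA in 8 of 8 tested genes, with a median ratio of 1.19 and a range of 1.03 for Treml4 to 1.24 for the chemokine receptor Ccr2 (1.22 to 1.26). Their summed FPKM was 222.1 in DCA and 186.5 in NC, and Ace, below the filter, was at 0.731 (0.556 to 0.957). Neutrophil markers were higher in 12 of 12 (summed FPKM 4210 and 3557, range of ratios 1.04 for Mmp8 to 1.39 for Ly6g), and B-lineage markers in 7 of 7 (173.1 and 138.6, 1.08 for Ebf1 to 1.42 for Blk).

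Dendritic cell markers were higher in 4 of 5 (summed FPKM 38.2 and 29.9), from Cd209a at 0.941 to Ccl22 at 1.89 (1.62 to 2.20), with Ccr7 at 1.68 (1.54 to 1.83) and Xcr1 below the filter at 23 and 36 reads. Eosinophil markers were higher in 4 of 4 (106.4 and 72.5), up to Epx at 1.90 (1.65 to 2.19), and mast cell and basophil markers in 5 of 6 (20.7 and 18.8). The single tested marker of T and NK cells, Nkg7, was at 1.23 (1.01 to 1.49). The list summed to 2.25 and 1.68 FPKM, of which Nkg7 alone made up 1.95 and 1.59. Below the filter, Cd3e counted 7 (DCA) and 16 reads (NC), Cd3g 17 and 0, Cd3d 14 and 0, and Klrb1c 29 and 12. The endothelium, where Klf2 and Klf4 are abundant, was represented by Kdr at 0.787 (0.716 to 0.865) and, below the filter, Cdh5 at 0.676 (0.535 to 0.852), and summed to 1.55 and 2.07 FPKM. The fibroblast genes Dcn and Pdgfra were at 0 in both libraries and that list summed to 0.148 and 0.138 FPKM, and the erythroid list to 0.3996 and 0.0776.

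All 7 macrophage markers were present, with summed FPKM of 10461 (DCA) and 10335 (NC). Lyz2 alone made up 9803 and 9669 of these sums, so they say little about the other markers. Of the 7 markers, 4 were lower, beside 46.5% of all tested genes, and the median ratio was 0.977. Mertk was at 0.9001 (0.853 to 0.9499), Adgre1, the F4/80 gene, at 0.938 (0.922 to 0.953), Itgam at 1.01 (0.996 to 1.02) and the lysozyme gene Lyz2 at 1.01 (1.01 to 1.02). Of the 44 tested markers of the other cell types, 7 had a ratio above the 1.32 of Klf2 and 0 a ratio above the 3.26 of Klf4, the highest being 1.90 for Epx. That holds for tested markers only. Below the filter, the T cell genes Cd3g and Cd3d, at 0 reads in NC, had lower interval ends of 4.32 and 3.47, above 3.26, while Cd3e was at 0.458. The part of the other cell types in the Klf2 and Klf4 differences was not tested.

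**Figure D4:**
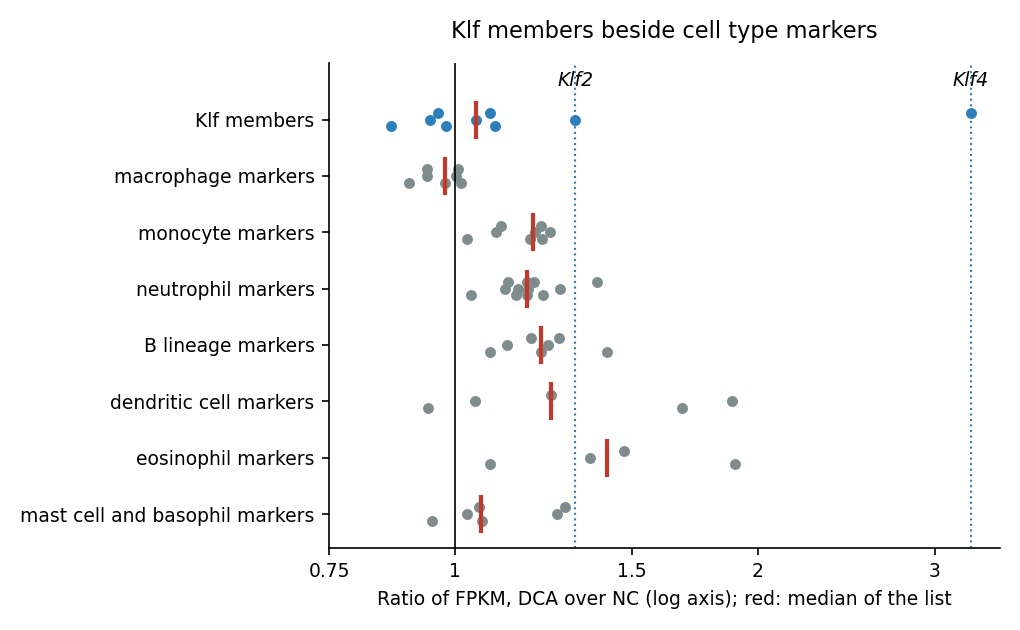
Ratio of FPKM in DCA over NC (horizontal log axis) for each tested gene of the Klf family and of 7 marker lists, with a red bar at the median of each list and dotted lines at Klf2 and Klf4. Klf2, at 1.32, lies within the spread of the neutrophil, B-lineage, dendritic cell and eosinophil markers, and Klf4, at 3.26, lies above every marker shown.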

How the data were processed

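The authors deposited FPKM for 15576 genes in 1 DCA and 1 NC library, and each column was matched to its library by name. The tools listed, without role or order, per the submitters' processing notes are HTSeq 0.6.0, DESeq2 3.0, STAR 2.5.0c, bedtools 2.17.0 and Picard 1.126, with GRCm38 as the build; gene length, strand setting and filters were not given in the sources used here. The GENCODE annotation of GRCm38 held 15548 of the genes and supplied coordinates (1-based), transcript lengths and exon overlaps (by position, on either strand), and names for genes among the 240 without a symbol.

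Read totals of 56.6 and 59.2 times 1e6 (DCA and NC) were found as the values at which FPKM times summed transcript length became whole. A gene counted as whole where both libraries came within 0.0001 of a read plus 1e-07 per read. Genes not whole at that length were tried at each length up to 600000 bases, with the rounding of the last deposited digit as the tolerance. This tolerance widened with the length tried and with high FPKM, and a value of 0 passed at any length. The 9656 genes whose mean reached 1 FPKM were compared by the difference in log2(FPKM + 1), computed from the deposited FPKM; the limit was 1.5-fold. With 1 library per group there was no test. Ratios of rebuilt reads, scaled to the totals, have Clopper-Pearson 95% intervals. For genes whole only at another length, the reads at the annotated length were rounded, so their intervals are approximate. The 8 members with whole reads had 598 to 17911 reads per library. The steps were tested on simulated data, where the intervals used the simulated reads rather than rebuilt ones. Python 3.11.15, pandas 2.3.3 and scipy 1.17.1 were used.

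The members and lists were chosen with earlier results of these data known. Named were all Klf and Sp genes of the lists, up to 2 genes of each other list at either end of the ratio with at least 50 reads in all, the 5 genes nearest Klf4 in ratio, and its measured neighbours. Ctbp1, Ctbp2, Icam2, Cd209a, Gata6, Timd4, Dcn, Pdgfra, Cd3e, Cd3g, Cd3d and Klrb1c were named besides. A gene that this rule names is not reported here.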

Additional observations from a re-analysis of the deposited data

How the results depend on the processing

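No paired analysis was possible because each group has 1 library. For the same reason no library could be left out. Under 8 other settings, none of the 67 values of single members changed sign. Those of Klf4 moved most: its log2 difference of 1.18 was 1.63 with a pseudocount of 0.1 FPKM, 0.54 with 5 FPKM and 1.58 after rescaling each library to a sum of 1e6. No member was 1.5-fold lower in any setting, and the number 1.5-fold higher was 0 with a pseudocount of 5, with a mean of at least 5 FPKM and, in an alternative chosen after seeing the data, without the 8 genes that are not whole reads. With the higher filter 3 of 6 members were higher, and without overlapping genes 3 of 7, with a median log2 difference of -0.030 in place of 0.060 (2 of 6 and -0.042 without Klf4). Tested genes at least 1.5-fold higher and lower, 33 and 15, numbered 60 higher with a pseudocount of 0.1, 11 and 7 with 5, 7 and 3 with the higher filter, 188 and 102 after rescaling, which lifts the values over the filter and pseudocount, and 13 and 3 without overlapping genes. Other settings stayed within 1.5 times of these counts. For members the depth limits differences of a few percent: the intervals of Klf6, Klf9 and Klf11 include equality.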
